A study of Mus musculus with 24 samples.

Results

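This comparison set high-fat feeding for 1 day against control feeding in mouse subcutaneous adipose tissue, the white fat depot under the skin. It used the 4 high-fat and 4 control libraries labelled day 1, that is 8 of the 24 libraries of the series, and every miRNA name in the table. The other 16 libraries came from the same tissue after 1 week and after 3 weeks on either diet, with 4 libraries in each of the 6 groups. Small RNA was sequenced from total tissue RNA, and reads were counted for 1907 mature miRNA names. The labels give the diet and the time of each library. Strain, age, sex and the make-up of the diets are not stated in the sources used here. The labels do not say whether each library is a separate mouse. The tests therefore weigh the diets against the spread between libraries within groups, and that spread may be technical. Outside the exact permutation tests, which used the 8 day 1 libraries alone, it was estimated from all 24 libraries. The standard error (SE) of a value can thus differ from the day 1 spread printed beside it.

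A miRNA is cut from a hairpin transcript by Drosha and then by DICER. Either arm of the hairpin, 5p or 3p, can be loaded into an Argonaute protein and pairs with messenger RNAs mainly through its seed, so miRNAs with the same seed share most of their targets. In adipose tissue several miRNAs, among them the miR-30, miR-143 and miR-148 families, are known to promote the formation of adipocytes, others such as miR-27 and miR-130 to restrain it, and further ones mark blood, vessel, epithelial or muscle cells in the depot.

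No single miRNA passed the test at day 1, so the sequences shown are of miRNAs without overlap between the diets or with small p-values, and of their close relatives. They are RNA sequences from RefSeq with GRCm38.p6 coordinates, written 5′ to 3′ with the seed (bases 2 to 8) in capitals. Of the 1907 names, 1623 matched an entry in that table, and of the 558 names tested, 489 did. The first set is from the miR-30 family. The 5p arms shown carry 1 seed and the 3p arms shown another.
miR-30a-5p: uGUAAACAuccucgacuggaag
miR-30e-5p: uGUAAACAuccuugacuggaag
miR-30c-5p: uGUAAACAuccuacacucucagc
miR-30e-3p: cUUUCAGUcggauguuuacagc
miR-30a-3p: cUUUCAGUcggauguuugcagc
Counted from 1 at the 5′ end, miR-30a-5p and miR-30e-5p are 22 bases long and differ by C13U, and miR-30e-3p and miR-30a-3p by A18G. The hairpin of miR-30e lies on the minus strand at chr4:120772606-120772697, in an intron of Nfyc, and is printed here because the ratio of its arms had the smallest p of the arm comparison. Both mature arms are in capitals.
Mir30e hairpin: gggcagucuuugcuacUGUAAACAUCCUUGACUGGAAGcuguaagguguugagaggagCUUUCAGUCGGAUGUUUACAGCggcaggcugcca

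The second set is the miR-99 and miR-100 family, which holds the most abundant miRNA among those whose diets did not overlap.
miR-99a-5p: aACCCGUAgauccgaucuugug
miR-100-5p: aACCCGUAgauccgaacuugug
miR-99b-5p: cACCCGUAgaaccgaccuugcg
The first and second of these share 21 of 22 bases and differ by U16A. From miR-99a-5p to miR-99b-5p the differences are A1C, U11A, U16C and U21C. The third set, with the seed AGCAGCA, is the miR-15 and miR-16 family of cell cycle regulators.
miR-322-5p: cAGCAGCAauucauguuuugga
miR-497a-5p: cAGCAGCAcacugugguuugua
miR-195a-5p: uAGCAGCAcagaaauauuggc
miR-15a-5p: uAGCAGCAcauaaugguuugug
miR-15b-5p: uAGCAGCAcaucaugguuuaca
miR-16-5p: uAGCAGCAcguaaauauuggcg
The fourth set is the miR-190 pair, the family with the smallest p among those of several members. The erythroid miR-144-3p and miR-136-5p of the imprinted Dlk1-Dio3 locus are added because they had the largest log2 fold changes among the miRNAs with an unadjusted p under 0.05 and a mean above 100 CPM (counts per mega-count of library).
miR-190a-5p: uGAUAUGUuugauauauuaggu
miR-190b-5p: uGAUAUGUuugauauuggguug
miR-144-3p: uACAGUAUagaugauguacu
miR-136-5p: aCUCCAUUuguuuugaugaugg

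Levels are given as CPM after TMM scaling, which sets each library to a common effective size. The control libraries held 7.25 ± 2.74 M counts (SD, n = 4, 5.36 to 11.3 M) and the high-fat libraries 4.05 ± 1.495 M (1.99 to 5.28 M), so every high-fat total lay under every control total. The difference in log10 total was −0.26, with an exact two-sided permutation p of 0.0286, the smallest that 4 against 4 can give, and 0.0858 after adjustment over 3 measures of the libraries. A floor of 3 counts corresponded to 0.248 to 0.596 CPM in the control and 0.526 to 1.48 CPM in the high-fat libraries. At an equal depth of 1.99 M counts, 745 ± 21.3 miRNAs were detected in control and 760.2 ± 23.8 in high-fat libraries (SD, n = 4, exact permutation p 0.371, adjusted 0.556). The 10 most abundant miRNAs took 68.7% ± 3.39 of the counts on control and 68.2% ± 1.56 on high-fat feeding (SD, n = 4), a difference smaller than the spread within either diet.

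No miRNA differed between the diets at day 1 by enough to pass the test against the spread between libraries. Of 558 miRNAs tested, 0 (0%) passed an adjusted p of 0.05 in edgeR's quasi-likelihood test with Benjamini-Hochberg adjustment, and the smallest adjusted p was 0.982. An unadjusted p under 0.05 was reached by 17 (3.05%), 7 higher (1.25%) and 10 lower (1.79%) on the high-fat diet, where 27.9 are the number that an even spread of p-values gives. DESeq2 also called 0, with 18 at an unadjusted p under 0.05, and limma-voom called 0, with 44. Single libraries moved the count of 17. It became 35 when control replicate 1 was left out and 6 when control replicate 2 or control replicate 4 was. Without high-fat replicate 4 it became 7.

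The comparison bounds the effect better for abundant miRNAs than for rare ones. The 95% confidence interval of the log2 fold change (high-fat over control) lay within a 2-fold change for 345 of 558 miRNAs (61.8%) and within a 1.5-fold change for 121 (21.7%). Among the 50 most abundant, 44 and 29 did so, and the largest log2 fold change in size was 0.76. Over all 558, 270 had a positive and 288 a negative value, the median was −0.01, and 11 exceeded 1 on the log2 scale in either direction. These changes are relative to the TMM scaling, and the median of all miRNAs was 0.03 with DESeq2's size factors.

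**Figure D1:**
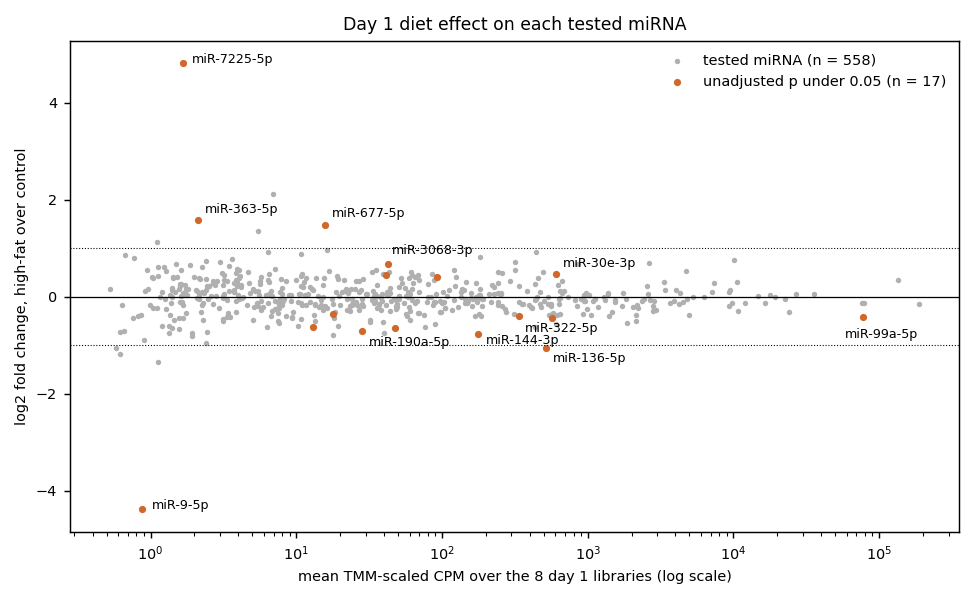
Log2 fold change at day 1 (high-fat over control) against mean TMM-scaled CPM over the 8 day 1 libraries on a log axis, 1 point per tested miRNA, with dotted lines at a 2-fold change. The 17 miRNAs with an unadjusted p under 0.05 are coloured, and the largest values sit at the low end of the expression range.

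The most abundant miRNAs in the deposited counts were those known from white fat and its vessels. Arms that come from several hairpins can be nearly absent from these counts. In the control libraries miR-24-3p held 5, 9, 21 and 5 counts, beside 23792, 14261, 14334 and 14446 of miR-24-2-5p. The ranking and the seed sums may understate such arms, and the cause was not tested. miR-148a-3p, which promotes adipocyte formation, took 18.6% of the day 1 counts and miR-143-3p, expressed in adipocytes and smooth muscle, 13.4%. The CPM of miR-148a-3p in control replicates 1 to 4 was 143807, 139193, 238964 and 266607, and in high-fat replicates 1 to 4 138733, 168243, 231772 and 176410.0. The libraries of the 2 diets covered the same range, and the log2 fold change was −0.14 ± 0.24 (SE, 95% confidence interval −0.65 to 0.37).

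miR-143-3p stood at 117627, 69816, 197022 and 91000.2 CPM on control and at 127425, 139747, 156601 and 184045 CPM on high-fat feeding. The high-fat values were closer together and lay inside the control range, with a log2 fold change of 0.35 ± 0.23. Its value was 0.75 without control replicate 3, the highest of the control libraries.

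miR-126a-3p, made from the endothelial gene Egfl7, took 7.85% of the counts and had a log2 fold change of −0.14 ± 0.15. miR-21a-5p, widely expressed and known from inflamed and fibrotic tissue, took 7.71% and had −0.14 ± 0.18. For let-7g-5p the value was 0.05 ± 0.12, so that its interval of −0.20 to 0.30 is among the narrow ones. The seed family of let-7, a regulator of differentiation and glucose metabolism, was bounded as closely when its members were summed (0.02 ± 0.11, interval −0.21 to 0.24).

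3 further abundant miRNAs of the adipocyte lists are given for their levels. miR-378a-3p, from an intron of Ppargc1b, was at 14624 ± 1559.9 CPM on control and 14699 ± 1270.0 CPM on high-fat feeding (SD, n = 4), a log2 fold change of 0.01 ± 0.23. miR-103-3p, from introns of the Pank genes and known to act on insulin sensitivity, was at 4652 ± 369.9 and 4337 ± 459.8 CPM, a value of −0.10 ± 0.15. miR-27b-3p, which restrains adipocyte formation, was at 9030.5 ± 769.9 and 9640.0 ± 678 CPM, a value of 0.09 ± 0.14.

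In 10 of the 558 miRNAs (1.79%) the 4 high-fat and the 4 control libraries did not overlap in CPM, 3 of them higher (0.538%) and 7 lower (1.25%) on the high-fat diet. The higher ones were miR-30e-3p, miR-363-5p and miR-431-3p, and the lower ones miR-30a-5p, miR-99a-5p, miR-322-5p, miR-199b-5p, miR-144-3p, miR-376b-5p and miR-29a-5p. All 10 had an adjusted p of at least 0.982 in edgeR's test. In several the gap was narrow: the highest high-fat and the lowest control values of miR-30a-5p were 22706 and 23186 CPM, and those of miR-29a-5p 13.8 and 13.9 CPM.

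**Figure D2:**
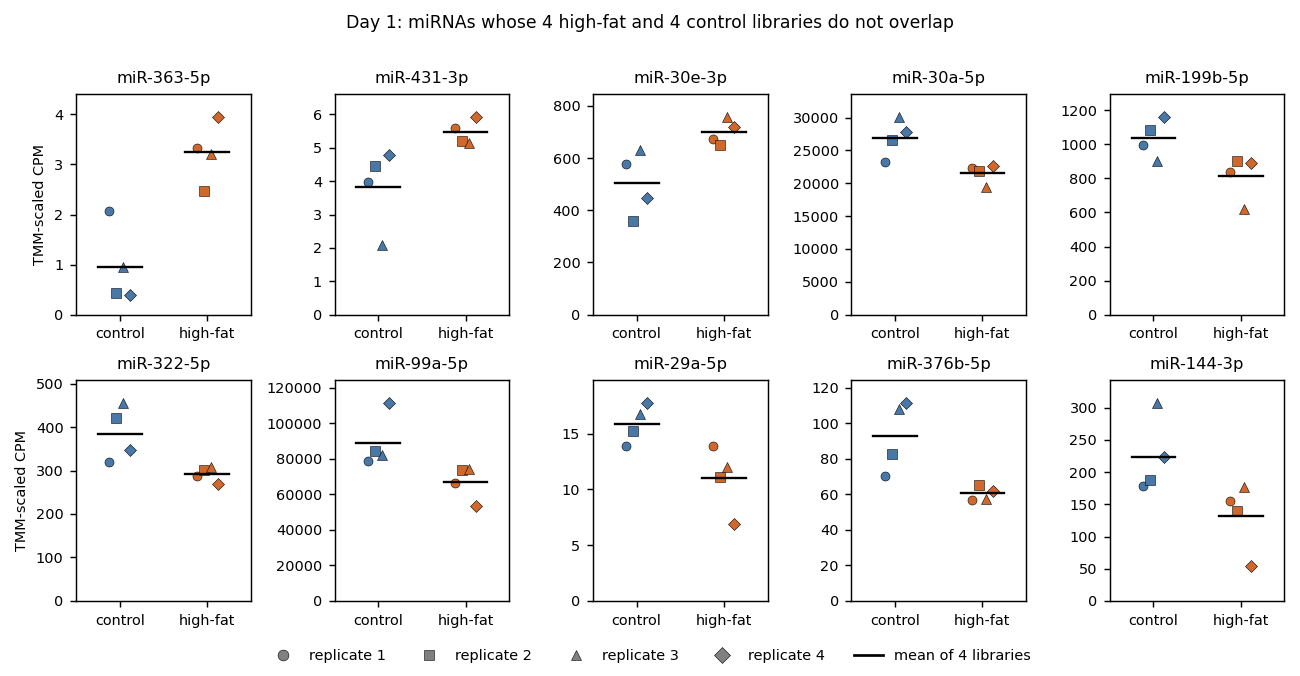
TMM-scaled CPM in each day 1 library for the 10 miRNAs whose diets did not overlap, with the marker shape giving the replicate number and the line the mean of 4 libraries. In the panel of miR-30e-3p the high-fat libraries sit between 650.1 and 756 CPM above control libraries between 359 and 629.7 CPM, and high-fat replicate 4 is the lowest library in the panels of miR-99a-5p, miR-144-3p, miR-322-5p and miR-29a-5p.

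miR-30e, of a family that promotes adipocyte formation, had values of opposite sign in its 2 arms. miR-30e-3p was at 579, 359, 629.7 and 449 CPM in the control libraries and at 671, 650.1, 756 and 719.9 CPM in the high-fat libraries. Each high-fat library exceeded each control library, with a log2 fold change of 0.47 ± 0.19 (SE, 95% confidence interval 0.09 to 0.86). Intervals here are not adjusted for the number of miRNAs tested. From the other arm of the same hairpin, miR-30e-5p was at 4329.7, 4437, 4706 and 4389 CPM on control and at 4518, 3940.0, 3746 and 3822 CPM on high-fat feeding. Here 3 of 4 high-fat libraries lay under all control libraries and high-fat replicate 1 did not, with a value of −0.16 ± 0.14.

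miR-30a-5p, which has the seed of miR-30e-5p and differs from it in 1 base, was the most abundant of the 3 arms with that seed in the RefSeq table. miR-30b-5p and miR-30d-5p were also tested and have no entry there. Its levels were 23186, 26600.1, 30058 and 27817 CPM on control and 22253, 21845, 19509 and 22706 CPM on high-fat feeding, a log2 fold change of −0.32 ± 0.16 (interval −0.65 to 0.015). Summed over the seed GUAAACA, the 3 arms in the table, of miR-30a, miR-30e and miR-30c, stood at 31587 ± 3009 CPM on control and 25800 ± 1604 CPM on high-fat feeding (SD, n = 4), without overlap, a log2 fold change of −0.29 ± 0.15. With miR-30b-5p and miR-30d-5p added by name, a sum chosen after the values were seen, the 5 arms stood at 45949, 52145, 54180.4 and 54342 CPM on control and at 47625.5, 45256, 42636 and 41332 CPM on high-fat feeding. The diets then overlapped, since high-fat replicate 1 exceeded control replicate 1, and the value was −0.22 ± 0.12 (interval −0.48 to 0.03). The log2 fold change of the 3p seed UUUCAGU, shared by miR-30a-3p and miR-30e-3p, was 0.21 ± 0.20 with overlapping diets. The value of miR-30a-3p itself was 0.04 ± 0.23 and that of miR-30c-5p 0.06 ± 0.16.

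In the miR-99 and miR-100 family, known to act on mTOR, the diets separated in 1 member and not in the others. miR-99a-5p, from the hairpin at chr16:77598936-77599000 in an intron of the noncoding host gene Mir99ahg, was at 78838, 84454, 82257 and 111256 CPM on control. In the high-fat libraries it was at 66475, 73566, 74383 and 53726 CPM. The highest control library was replicate 4 and the lowest high-fat library was replicate 4, and all high-fat values lay under all control values. Its log2 fold change was −0.41 ± 0.20 (interval −0.82 to −0.0063), and it was −0.26 without control replicate 4.

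The rare other arm of the same hairpin, miR-99a-3p, was at 15.8, 15.4, 12.2 and 19.7 CPM on control and at 11.6, 12.6, 6.01 and 10.8 CPM on high-fat feeding, a value of −0.62 ± 0.24 (interval −1.12 to −0.13). The diets overlapped in 1 high-fat library, replicate 2, which exceeded control replicate 3. miR-100-5p, which differs from miR-99a-5p in the single base U16A, stood at 6266 ± 861 CPM on control and 6237 ± 1070.3 CPM on high-fat feeding (SD, n = 4). Its log2 fold change of −0.01 ± 0.17 turned positive under 8 of the 9 other settings that left out no day 1 library. miR-99b-5p had −0.05 ± 0.18, and the sum over the seed ACCCGUA, in which miR-99a-5p dominates, −0.37 ± 0.18 without overlap. How reads that match several members were assigned is not stated in the sources used here, so the split between these near-identical sequences is uncertain.

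The members of the miR-15 and miR-16 family had values on either side of 0. miR-322-5p, the mouse counterpart of human miR-424 from an X-linked cluster (chrX:53054255-53054349, intergenic), was at 319, 419.8, 454 and 348 CPM on control and at 288, 301, 308 and 269 CPM on high-fat feeding. No high-fat value reached a control value, and the log2 fold change was −0.40 ± 0.17 (interval −0.75 to −0.05). miR-497a-5p was at 525, 667, 740.1 and 680.3 CPM on control and at 409, 539.5, 557 and 422 CPM on high-fat feeding, a value of −0.44 ± 0.20. Control replicate 1 was the lowest control library and the only one within the high-fat range.

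miR-195a-5p, from the same cluster on chromosome 11 as miR-497a-5p, had −0.39 ± 0.20, and miR-15a-5p had −0.35 ± 0.22. The abundant member miR-16-5p, at 1576 ± 366 CPM on control and 1507 ± 315 CPM on high-fat feeding (SD, n = 4), had −0.06 ± 0.29. miR-15b-5p, which lies beside a copy of miR-16 in an intron of Smc4, had 0.26 ± 0.34. The sum over the seed AGCAGCA overlapped between the diets, with a value of −0.22 ± 0.16.

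miR-190a-5p, from an intron of Tln2 at chr9:67236660-67236726, had the smallest p among the miRNAs with lower values. It was at 27.2, 28.3, 37.1 and 48.7 CPM on control and at 22.8, 27.7, 21.9 and 12.8 CPM on high-fat feeding, a log2 fold change of −0.71 ± 0.26 (interval −1.26 to −0.16). High-fat replicate 2 lay just above control replicate 1. Added to miR-190b-5p, whose own value was −0.31 ± 0.22, the pair no longer overlapped between the diets (−0.61 ± 0.20, interval −1.03 to −0.19).

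Over all 404 seed families tested, 0 (0%) passed the adjusted threshold in edgeR's test, and the smallest adjusted p was 0.963. An unadjusted p under 0.05 was reached by 10 (2.48%), 5 higher (1.24%) and 5 lower (1.24%), and 7 (1.73%) did not overlap, 1 higher (0.248%) and 6 lower (1.49%). These sums leave out the 69 tested names with no entry in the RefSeq table, among them miR-143-3p, miR-378a-3p, miR-150-5p, miR-30b-5p and miR-30d-5p, and names with an entry held 81.5% of the day 1 counts. Counts were also summed, with the same names left out, over 52 genomic clusters, in which hairpins on 1 strand lie within 10 kb of the next. None of the 52 passed, 0 (0%) had an unadjusted p under 0.05 in edgeR's test, and 3 (5.77%), all lower on the high-fat diet, did not overlap. They were the pair of Mir99a and Mirlet7c-1 (−0.41 ± 0.20), the stretch from Mir770 to Mir136 in the Dlk1-Dio3 locus (−0.49 ± 0.27) and the pair of Mir181c and Mir181d (−0.17 ± 0.19).

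The Dlk1-Dio3 locus is imprinted, expresses its miRNAs from the maternal chromosome and is active in growing and regenerating tissue. Of its 73 tested miRNAs, 21 had positive and 52 negative values at day 1, with a median of −0.15 against −0.01 over all tested, and 0 passed the threshold. The median was −0.0010 without control replicate 4. miR-136-5p had the largest value among the locus's miRNAs, with 403, 479.5, 962 and 930.2 CPM on control and 283, 415, 373 and 267 CPM on high-fat feeding. Control replicates 3 and 4 stood far above the rest, and high-fat replicate 2 lay above control replicate 1. The log2 fold change was −1.05 ± 0.41 (interval −1.90 to −0.21).

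miR-376b-5p of the same locus was at 70.2, 82.4, 108 and 111 CPM on control and at 56.9, 65.3, 57.5 and 62.1 CPM on high-fat feeding, without overlap and with a value of −0.62 ± 0.32. miR-434-5p and miR-379-5p, the abundant members, had −0.38 ± 0.34 and −0.10 ± 0.32, and the former was −0.07 without control replicate 4. miR-431-3p was among the 3 higher miRNAs without overlap, but at a low level: it held 48, 31, 11 and 24 counts in the control libraries and 32, 21, 24 and 12 counts in the high-fat libraries, 2.09 to 4.77 against 5.15 to 5.92 CPM.

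Other miRNAs with higher values included some that were high in 1 library alone. miR-677-5p was at 7.61, 8.47, 8.37 and 7.36 CPM on control and at 9.81, 5.44, 10.9 and 67.1 CPM on high-fat feeding, and its value of 1.49 ± 0.60 became 0.18 without high-fat replicate 4. miR-3068-3p was highest in the same library, at 85.3 CPM against 28.5 to 45.0 CPM in the other 7, and its value of 0.67 ± 0.27 became 0.38 without it. The genome annotation also lists a snoRNA at the hairpins of miR-677 and miR-3068. miR-345-3p and miR-425-3p had 0.41 ± 0.18 and 0.45 ± 0.21 with overlapping diets.

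3 further miRNAs were too close to the counting floor for a fold change to be read. miR-363-5p held 25, 3, 5 and 2 counts on control and 19, 10, 15 and 8 counts on high-fat feeding, and did not overlap once scaled. miR-9-5p, a neuronal miRNA, held 2, 25, 9 and 7 counts on control and 1, 0, 0 and 0 counts on high-fat feeding, where a count of 0 allows up to 0.742, 0.644 and 1.48 CPM in replicates 2, 3 and 4. Of the 9 neuronal markers tested, 6 had positive and 3 negative values, with a median of 0.13. miR-7225-5p held 26 counts in high-fat replicate 4 and at most 2 in each of the other 7 libraries.

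The ratio of the 5p to the 3p arm compares the 2 arms counted under 1 name and does not depend on library scaling. An arm may come from several hairpins, as for miR-199a. Of 129 precursors with a mean of at least 20 counts in each arm, 0 (0%) passed in limma's test with Benjamini-Hochberg adjustment, the smallest adjusted p being 0.248. An unadjusted p under 0.05 was reached by 14 (10.9%), 12 with a lower ratio on the high-fat diet (9.3%) and 2 with a higher ratio (1.55%). Over all 129, the median difference in log2 ratio was −0.05 and 75 were negative. The count of 14 became 8 without control replicate 2.

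miR-30e had the smallest p. Its log2 ratio was 2.90, 3.63, 2.90 and 3.29 in the control libraries and 2.75, 2.60, 2.31 and 2.41 in the high-fat libraries, so that the 5p arm outnumbered the 3p arm in all 8. Every high-fat ratio lay under every control ratio, with a difference of −0.66 ± 0.21 in limma's fit (adjusted p 0.248). The diets also did not overlap for miR-674 and miR-409 (3 of 129, 2.33%).

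miR-674 comes from an intergenic hairpin at chr2:117185127-117185226, printed with both arms in capitals because its ratio separated the diets while neither arm did.
Mir674 hairpin: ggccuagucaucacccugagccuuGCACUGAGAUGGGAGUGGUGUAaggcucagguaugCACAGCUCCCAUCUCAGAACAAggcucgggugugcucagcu
Its log2 ratio was −1.43, −0.59, −1.25 and −0.81 on control and −1.71, −1.52, −1.59 and −1.86 on high-fat feeding, a difference of −0.65 ± 0.22. miR-674-3p alone had a log2 fold change of 0.40 ± 0.20 and miR-674-5p alone −0.20 ± 0.22.

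For let-7b the control libraries split, at 7.12, 8.64, 7.39 and 8.57, while the high-fat libraries stood together at 7.14, 7.44, 7.12 and 7.31 (difference −0.68 ± 0.23). Control replicates 1 and 3 lay with the high-fat libraries and control replicates 2 and 4 above them. miR-143 differed by −0.82 ± 0.27 and miR-322 by −0.68 ± 0.31, both with overlapping diets. In the opposite direction, miR-199a differed by 0.45 ± 0.18 and miR-142a by 0.73 ± 0.29. The ratio of miR-199a may mix precursors. In the control libraries miR-199b-3p held 8, 11, 3 and 10 counts, beside 12050, 7554, 4747 and 5830 of miR-199b-5p. Whether reads of that hairpin were counted as miR-199a-3p was not tested. limma called let-7b without control replicate 1 (adjusted p 0.0214) and miR-143 without control replicate 3 (adjusted p 0.0185), and called no precursor when any of the other 6 libraries was left out.

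**Figure D3:**
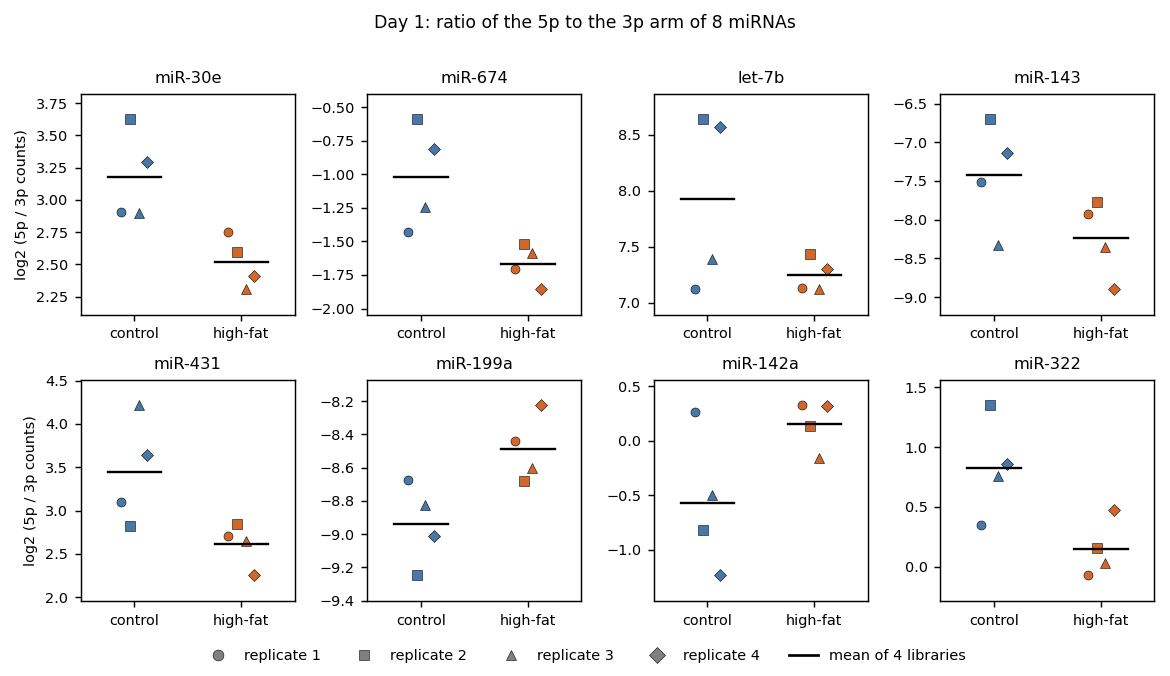
Log2 ratio of 5p to 3p counts (pseudocount 0.5) in each day 1 library for 8 precursors, with the marker shape giving the replicate number and the line the mean of 4 libraries. The diets do not overlap for miR-30e and miR-674. Control replicates 1 and 3 lie with the high-fat libraries for let-7b, and control replicate 1 does for miR-142a.

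miRNAs that mark skeletal muscle varied strongly between libraries of 1 diet. In bulk tissue, fewer cells of a type and less RNA per cell cannot be told apart. Their mean log2 CPM was 4.29, 2.64, 3.16 and 6.20 in the control libraries and 5.48, 1.43, 0.88 and 6.19 in the high-fat libraries, over 8 tested of 15 names. miR-206-3p, restricted to skeletal muscle, ranged from 5.79 to 1378 CPM on high-fat and from 69.4 to 804 CPM on control feeding, with a log2 fold change of 0.93 ± 1.61. The first principal component of the 8 libraries (37.3% of the variance) had muscle miRNAs at 6 of its 10 largest loadings and did not separate the diets (exact permutation p 0.714). When these means and those of the leukocyte markers entered the model as covariates, edgeR called 0 miRNAs, and 27 had an unadjusted p under 0.05.

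Markers of red blood cells were lower in all 6 tested members on the high-fat diet, where 288 of all 558 were lower. Their median was −0.57 against −0.01 over all tested, none passing the threshold. miR-451a and both arms of miR-144 come from 1 erythroid transcript on chromosome 11, and miR-451a is cut by Argonaute in place of DICER. The other members are arms of miR-486a and miR-486b, so the 6 are not independent. miR-144-3p was at 178, 187, 307 and 223 CPM on control and at 155, 139.8, 177 and 54.2 CPM on high-fat feeding, a log2 fold change of −0.76 ± 0.34 without overlap. High-fat replicate 4 was the lowest library, and without it the value was −0.46. miR-451a had −0.51 ± 0.30 and miR-486a-5p −0.31 ± 0.43, both with overlapping diets. The median of the 6 was −0.16 without control replicate 4, the library with the highest erythrocyte mean (7.43 against 6.10 to 6.58 in the other 7).

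Lymphocyte markers had positive values in 10 of 11 tested members, with a median of 0.38, and leukocyte markers in 10 of 19, with a median of 0.24. No member passed the threshold, and for every member of both lists the diets overlapped. miR-150-5p, the marker of mature lymphocytes, was at 6106, 3126, 4022 and 2150.0 CPM on control and at 5326, 3521, 6354 and 6973 CPM on high-fat feeding, a value of 0.53 ± 0.57. miR-142a-5p, made in all blood-forming lineages, was at 13912, 3495, 9665 and 2747 CPM on control and at 12872, 7401, 16682 and 13490.4 CPM on high-fat feeding, a value of 0.76 ± 0.71. Control replicates 2 and 4 were the low libraries for both miRNAs. Within the leukocyte list miR-142a-5p had the highest value, and the members ran from −0.82 to 0.76. miR-142a-3p had 0.29 (−0.0035 without high-fat replicate 3) and miR-21a-5p had −0.14. Both lists hold the arms of miR-150, miR-155 and miR-342, so the lists are not independent. The leukocyte median was −0.02 without high-fat replicate 3, and the lymphocyte median lay between 0.28 and 0.58 when any library was left out.

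Endothelial markers had 5 positive values of 13 with a median of −0.14, which was 0.0062 without high-fat replicate 4. Fibroblast markers had 2 of 12 with a median of −0.14. Among these 12, 2 did not overlap, miR-199b-5p and miR-29a-5p, where 1.79% of all tested miRNAs did not. The range of miR-199b-5p was 902 to 1159 CPM on control and 619 to 902 CPM on high-fat feeding. Its diets were thus tied to the nearest CPM, and the gap of miR-29a-5p was also narrow. Whether these gaps hold under another scaling was not tested. The mean log2 CPM of the fibroblast list, 8.57 to 8.67 on control and 8.32 to 8.53 on high-fat feeding, also did not overlap, and its part in the other values was not tested. Epithelial markers had 6 of 18 with a median of −0.25, which was −0.098 without control replicate 2. Their defining member miR-200a-3p was well above the floor in every library, at 5000.0, 7035, 5102 and 5347 CPM on control and 4501, 5815, 3488 and 3548 CPM on high-fat feeding. Its value was −0.37 ± 0.27. Epithelial values ran from −0.73 to 0.70, and the highest was that of the abundant member miR-203-3p. Liver markers had 2 positive values of 4 with a median of −0.0091, and the lowest was −0.18. Of these, miR-122-5p had 0.55 ± 0.50, which was 0.05 without high-fat replicate 2, and miR-192-5p had 0.08 ± 0.17.

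**Figure D4:**
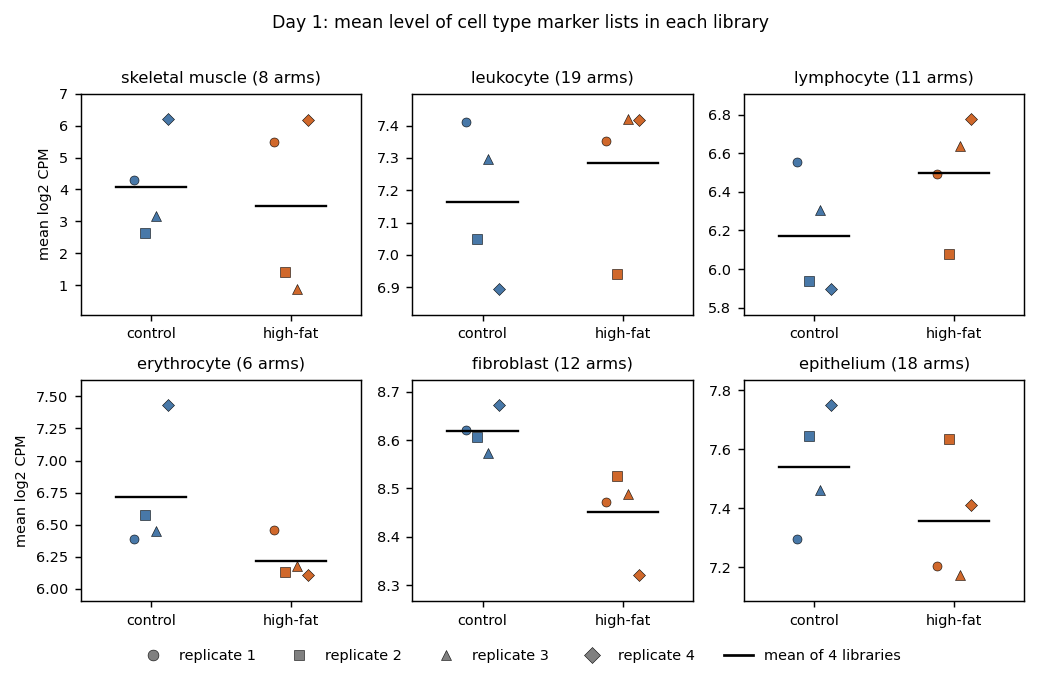
Mean log2 CPM of 6 cell type marker lists in each day 1 library, with the number of miRNA arms in each panel, the marker shape for the replicate number and the line for the mean of 4 libraries. Skeletal muscle spans 0.88 to 6.20 across libraries, more than the other 5 lists shown, and the fibroblast panel is the 1 of the 6 in which the diets do not overlap (8.57 to 8.67 on control, 8.32 to 8.53 on high-fat feeding).

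The lists of adipocyte miRNAs were centred near 0. Of 40 adipocyte-enriched or adipogenesis-promoting arms, 16 had positive values and the median was −0.05. Of 22 anti-adipogenic arms, 10 did (median −0.12), of 32 linked to brown and beige adipocytes, 16 did (−0.01), and of 27 linked to inflammation and obesity, 11 did (−0.10). None of their members passed the threshold. The brown and beige median turned positive with DESeq2's size factors (0.03) and with library totals (0.02). The other 3 medians turned positive when 1 library was left out: the adipocyte one was 0.0070 without control replicate 4, the anti-adipogenic one 0.013 without control replicate 3 and the inflammation one 0.050 without control replicate 2. The 32 brown and beige values ran from −0.76 to 0.70. Among them miR-196a-5p, a Hox cluster miRNA known to promote browning of white fat, had −0.37 ± 0.19 with overlapping diets. With single libraries left out, miR-196a-5p ranged from −0.53 to −0.19.

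Among the other groups, the Sfmbt2 intron cluster, a rodent repeat of near-identical hairpins, had 9 tested members of 74 names. All 9 had positive values, with a median of 0.54, which was 0.32 without control replicate 4. These members share 1 locus and are not independent. Some were rare, such as miR-466n-3p with 1 to 16 counts per library. The abundant members miR-669c-5p and miR-467c-5p had 0.30 ± 0.44 and 0.54 ± 0.48 with overlapping diets. Reads of the cluster's copies cannot be assigned with certainty. The miR-17-92 cluster and its paralogues, which drive cell division, had 16 positive values of 22 and a median of 0.13, with miR-106b-3p from an intron of Mcm7 at 0.48 ± 0.23. The miR-29 family, which acts on collagen genes, had 1 of 7 with a median of −0.13. Its rare arm miR-29a-5p was at 13.9, 15.2, 16.7 and 17.7 CPM on control and at 13.8, 11.1, 12.02 and 6.90 CPM on high-fat feeding, a value of −0.51 ± 0.26. The sum over the pair of Mir29b-1 and Mir29a, in which miR-29a-3p dominates, had −0.12 ± 0.19 with overlapping diets.

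**Figure D5:**
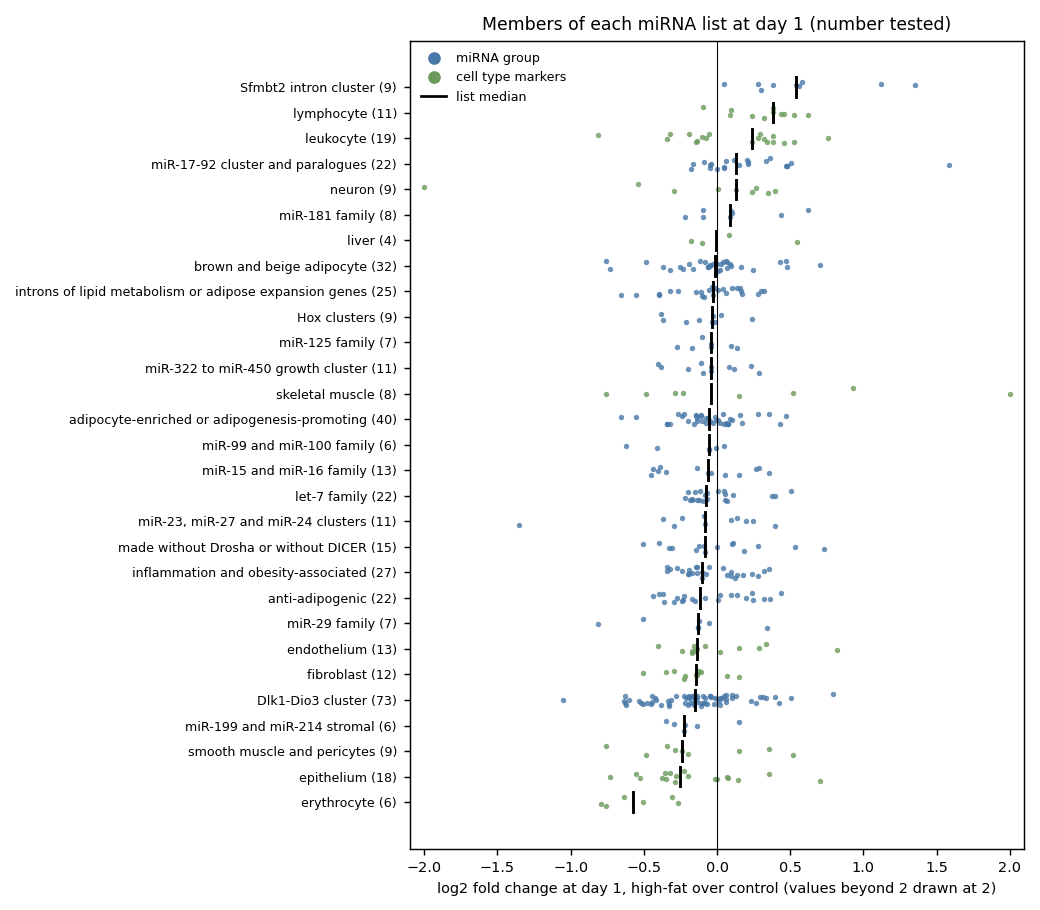
Log2 fold change at day 1 of every tested member of each list (points; values beyond 2 drawn at 2) with the list median (bar), ordered by median, in blue for miRNA groups and green for cell type markers. Medians run from −0.57 for erythrocyte markers to 0.54 for the Sfmbt2 intron cluster, and no member of any list passed the adjusted threshold.

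The diet effect at day 1 was also set against those at the later times, which rest on other libraries. For day 1 minus week 1, 0 of 558 (0%) passed in edgeR's test, the smallest adjusted p was 0.289, and 83 (14.9%) had an unadjusted p under 0.05. For day 1 minus week 3, 0 passed (0%), the smallest adjusted p was 0.991, and 11 (1.97%) had an unadjusted p under 0.05. The diet contrast at week 1 itself had 79 of 558 with an unadjusted p under 0.05 in edgeR's test. That at day 1 had 17 and that at week 3 had 10. The values of day 1 that lay furthest from those of week 1 included miR-425-3p, with 0.45 ± 0.21 at day 1, −0.60 ± 0.21 at week 1 and a difference of 1.05 ± 0.30. miR-136-5p had −1.05 ± 0.41 at day 1, 0.92 ± 0.41 at week 1 and a difference of −1.97 ± 0.58.

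For the miRNAs that separated the diets at day 1, the values at the later times were on either side of 0. miR-30e-3p had a log2 fold change of 0.47 ± 0.19 at day 1, −0.20 ± 0.18 at week 1 and 0.03 ± 0.18 at week 3. That of miR-99a-5p was −0.41 ± 0.20, 0.16 ± 0.20 and 0.15 ± 0.20, and that of miR-322-5p −0.40 ± 0.17, 0.14 ± 0.17 and −0.01 ± 0.17. The erythroid miR-144-3p had −0.76 ± 0.34, 0.14 ± 0.33 and −0.44 ± 0.33. The differences between times for these 4 had adjusted p-values from 0.289 upward in edgeR's test.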

How the data were processed

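The authors deposited raw counts of reads per mature miRNA arm, 1 column per library. Per the submitters' processing notes, the tools were FastQC, Trim Galore, Bowtie2 and featureCounts, and the build was mm10. Their versions and settings, the annotation of miRNAs and the handling of multi-mapped reads are not stated in the sources used here, so counts of miRNAs with several genomic copies or near-identical relatives are uncertain. Per the labels' protocols, libraries came from total RNA purified with TRIzol and were made with an NEBNext small RNA kit. Groups and replicate numbers were read from the sample titles.

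The deposited counts were fitted in 1 model of the 6 diet-by-time groups with edgeR 4.0.16 in R 4.3.3 (TMM scaling, robust quasi-likelihood test, two-sided, Benjamini-Hochberg adjusted p under 0.05). The filter filterByExpr (minimum count 10, minimum total 15) kept 558 names, and the 1349 left out held 0.0179% of the counts. Contrasts were high-fat against control at day 1, and this minus the same at week 1 or week 3. Counts were also summed over seed families and over clusters of hairpins within 10 kb, and the log2 ratio of the arms was tested with limma 3.58.1 (pseudocount 0.5). DESeq2 1.42.0 and limma-voom served as alternatives. No pair of libraries within a day 1 group matched within sampling noise. The sources mention no molecular identifiers, so floors cover counting error only.

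The replicate numbers were not shown to pair the libraries. Same-numbered libraries of the 2 diets had correlations of 0.0684, 0.48, 0.336 and 0.312 in their deviations from the group means, and pairing was to be used where all exceeded 0.1.

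The comparison, the families and the lists were chosen with earlier results of these data known. Named miRNAs are the 12 higher and the 12 lower ones of smallest p, the 12 most abundant, those without overlap of the diets, and the 3 most abundant tested members of each list, of which the text gives a selection. Other members of the miR-30, miR-15, miR-99 and miR-190 families and the other arms of named hairpins were added after their values were seen. The scripts were tested on simulated data.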

Additional observations from a re-analysis of the deposited data

Results flagged for a closer look

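In 9 of 214 sets of 4 libraries (4.21%) 1 library stood apart from the other 3 by more than Dixon's 95% limit, where chance gives about 1 in 20. The total of control replicate 1 was 11.3 M counts, against 5.36 to 6.24 M in the other control libraries. In the same library miR-3970 was at 15.6 CPM (3.78 to 5.70 in the others) and miR-330-3p at 16.2 CPM (21.3 to 21.7). In control replicate 2, the epithelial miR-200a-3p was at 7035 CPM (5000.0 to 5347), and in control replicate 3 the endothelial miR-126a-3p was at 90409.6 CPM (78682 to 79882). In high-fat replicate 4, the library with the fewest counts, miR-677-5p was at 67.1 CPM (5.44 to 10.9) and the erythroid miR-144-5p at 21.7 CPM (40.5 to 43.8). miR-27b-3p was at 8626 CPM in high-fat replicate 3 (9926 to 10037). The mean log2 CPM of the leukocyte markers was 6.94 in high-fat replicate 2 (7.35 to 7.42).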

How the results depend on the processing

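The count of 0 miRNAs called at day 1 held under DESeq2's size factors, library totals, no filter, a mean of at least 10 CPM, DESeq2, limma-voom, the day 1 libraries alone, the replicate block, the covariates and each left-out library. The counts at an unadjusted p under 0.05 ranged from 15 to 44 over the settings that left out no day 1 library. They were 44 of 1467 without a filter, 44 with limma-voom, 37 with the replicate block and 27 with the covariates. With the replicate block limma called 5 arm ratios (miR-136, miR-674, miR-30e, miR-335 and miR-322, smallest adjusted p 0.0403), but the replicate numbers were not shown to pair the libraries; 3 of 4 high-fat and 2 of 4 control libraries correlated best with the library of their own number in the other diet. Leaving out single libraries gave 0 to 1 called arm ratios. Without a filter, let-7i-5p was at −0.00083, let-7g-5p at −0.0020 and miR-378a-3p at −0.036. miR-100-5p was at 0.031 with RLE factors and 0.031 with DESeq2, 0.028 with totals, 0.041 with the mean CPM minimum, 0.059 with limma-voom, 0.041 with day 1 alone, 0.040 with the block and 0.030 with the covariates. miR-206-3p was at −0.89 with the block and −0.16 with the covariates. With single libraries left out, miR-148a-3p ranged from −0.27 to 0.079, miR-126a-3p from −0.24 to 0.041, let-7i-5p from −0.034 to 0.15, miR-16-5p from −0.16 to 0.083, miR-100-5p from −0.070 to 0.093 and miR-99b-5p from −0.11 to 0.049. miR-486a-5p ranged from −0.44 to 0.045, miR-142a-3p from −0.0035 to 0.57, miR-379-5p from −0.17 to 0.060, miR-30a-3p from −0.041 to 0.16, the let-7 seed from −0.011 to 0.093 and the miR-148 seed CAGUGCA from −0.26 to 0.079. The difference in the share of the 10 most abundant miRNAs ranged from −1.76 to 0.48 percentage points. The cause of these sign changes was not tested. The log10 total ranged from −0.31 to −0.17 (exact permutation p 0.0286 to 0.114). Depth limits detection under 1.48 CPM in high-fat replicate 4.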
